A study of Schizosaccharomyces pombe with 8 samples.

Results

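Solo XUTs are long noncoding transcripts of fission yeast that do not run antisense to a protein-coding gene. They were taken from the annotated XUT rows on chromosomes I, II and III, keeping each row that overlapped every gene row on the opposite strand by under 50 nt. This rule kept 423 of 1628 XUTs. The other 1205 XUTs overlapped an opposite-strand gene by 50 nt or more and are called antisense XUTs, and 10 further XUTs of the table lay on other contigs. Among the solo XUTs, 52 overlapped a gene row on their own strand and 371 did not. The distance to the nearest gene 5′ end was under 500 nt for 250 members, and 500 nt or more for 173. The rule used positions only and no histone signal. The XUT rows it started from had been annotated by the study from RNA levels.

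The study immunoprecipitated histone H3 acetylated on lysine 14 (H3K14ac, antibody 07-353), histone H4 acetylated on lysines 5, 8, 12 and 16 (H4ac, antibody 05-1355) and total histone H3 (ab1791) from wild-type cells of strain YAM2394, of mating type h+ with the markers leu1-32, ura4-D18 and ade6-M210. The labels and methods name this strain, while another passage of the study names YAM2400 (h-) for the same ChIP. The cells grew exponentially and were fixed with formaldehyde. There were 2 biological replicates for each antibody, which gave 6 ChIP-seq libraries, each with 1.40e+07 to 1.52e+07 tags summed over gene rows. The 2 Input libraries were not analysed here. All 3 groups shared 1 genotype and 1 growth condition, so every comparison is between a mark and H3, between the 2 marks, or between classes of region. The XUTs themselves were defined by RNA sequencing in exo2Δ cells, and the chromatin was measured in cells that still have Exo2. ChIP tags carry no strand, so a value at a XUT belongs to the DNA and not to 1 of its strands.

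Exo2, called Xrn1 in budding yeast, is the main cytoplasmic exoribonuclease that degrades RNA from its 5′ end. XUTs are the RNAs that accumulate when it is missing. Most attention has gone to the antisense members, whose transcription runs across a gene. Acetylation of H3K14, laid down by enzymes such as Gcn5 and Mst2, and of the H4 tail, laid down in part by Mst1, is typical of active promoters and of the first nucleosomes after them. Near the ends of chromosomes I and II, fission yeast holds heterochromatin in which histone tails are deacetylated by Clr3, Sir2 and other enzymes. Both ends of chromosome III carry ribosomal DNA arrays instead.

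The windows of 4 members are shown because they belong to members at the extremes described below, namely the solo XUT with the highest H3K14ac/H3 ratio (XUT0636), one of the 2 highest among those near a gene 5′ end (XUT0597), the one with the most H3K14ac relative to H4ac (XUT1280), and the lowest ratio at a site of unique sequence (XUT1154). Each runs 5′ to 3′ on the strand of the XUT, with the 250 bases before the annotated XUT 5′ end in lower case and the first 50 bases of the XUT in capitals. None of them touches a gene row. The positions are chrI:3004823-3005122 on the minus strand, chrI:2519446-2519745 on the minus strand, chrI:72047-72346 on the plus strand and chrII:2887188-2887487 on the plus strand. The deposited positions are on build ASM294v2 and the letters were read from the RefSeq copy of build ASM294v3, after a check that the coding sequence of 99.9% of 5119 transcripts began with ATG at the deposited positions.
XUT0636: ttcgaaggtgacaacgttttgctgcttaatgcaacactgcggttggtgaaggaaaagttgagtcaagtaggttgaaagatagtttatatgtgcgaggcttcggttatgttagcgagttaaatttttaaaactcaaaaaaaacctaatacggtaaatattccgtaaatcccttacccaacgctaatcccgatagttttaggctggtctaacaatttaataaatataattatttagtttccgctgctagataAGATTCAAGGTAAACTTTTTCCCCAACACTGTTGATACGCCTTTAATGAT
XUT0597: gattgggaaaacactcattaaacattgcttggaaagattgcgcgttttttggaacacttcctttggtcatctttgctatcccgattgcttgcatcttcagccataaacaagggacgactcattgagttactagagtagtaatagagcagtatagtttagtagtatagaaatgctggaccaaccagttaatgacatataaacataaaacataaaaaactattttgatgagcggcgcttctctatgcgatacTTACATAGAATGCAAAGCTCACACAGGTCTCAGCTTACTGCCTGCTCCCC
XUT1280: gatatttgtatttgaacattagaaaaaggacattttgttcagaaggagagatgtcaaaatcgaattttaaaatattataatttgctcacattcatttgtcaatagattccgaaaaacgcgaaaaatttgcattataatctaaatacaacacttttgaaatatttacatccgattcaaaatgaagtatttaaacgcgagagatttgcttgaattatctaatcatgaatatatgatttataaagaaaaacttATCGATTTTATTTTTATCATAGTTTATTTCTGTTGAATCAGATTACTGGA
XUT1154: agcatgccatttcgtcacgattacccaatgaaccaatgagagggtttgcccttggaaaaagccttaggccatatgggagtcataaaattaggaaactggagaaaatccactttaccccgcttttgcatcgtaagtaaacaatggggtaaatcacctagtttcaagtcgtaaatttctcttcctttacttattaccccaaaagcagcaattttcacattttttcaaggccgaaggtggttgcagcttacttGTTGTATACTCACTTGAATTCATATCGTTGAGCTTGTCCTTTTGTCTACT

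In all, 3 motifs were counted in such windows on both strands, TATAAA (the core of the TATA box), TGACGT (a core of sites bound by Atf1-type factors) and ACGCGT (the site of the MBF cell-cycle factor). TATAAA was present in 44.4% of the 423 solo XUT windows, in 36.7% of 1205 antisense XUT windows and in 50.0% of 5117 gene windows of the same 300 nt. TGACGT was present in 5.44% of solo windows, in 4.32% of antisense windows and in 5.78% of gene windows. ACGCGT was present in 1.65% of solo windows, in 2.07% of antisense windows and in 3.03% of gene windows. Among the 4 windows printed above, TATAAA on the strand of the XUT began 56 nt before the XUT 5′ end at XUT0597 and 15 nt before it at XUT1280. At XUT0636 it was found upstream on the other strand only, and at XUT1154 it was not found. A match is only a run of letters, and XUT 5′ ends come from segmentation of RNA signal and are not mapped start sites.

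Most solo XUTs carried more of both acetyl marks than of H3. In replicates 1 and 2 the median tag density over the 423 members was 1.69 and 1.67 tags per nt with the H3K14ac antibody, 1.44 and 1.39 with the H4ac antibody, and 0.913 and 0.912 with the H3 antibody. The libraries of each mark lay above both H3 libraries. The median log2 ratio was 1.11 (H3K14ac/H3) and 0.95 (H4ac/H3), with a range over members of -3.42 to 3.42 and of -2.69 to 3.11. All ratios are on the scale of log2(density + 0.01), as means over the 2 replicates. Each library was scaled by 1 factor of the authors and not calibrated to an absolute amount, so a ratio of 0 marks equal scaled densities and not equal occupancy.

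Each region was tested with limma, with Benjamini-Hochberg adjustment over all 19340 rows of the table that passed a filter on low values, and called at an adjusted p under 0.05. All 423 solo XUTs passed the filter. H3K14ac exceeded H3 at 323 solo XUTs (76.4%) and was below it at 76 (18.0%), where 52.5% and 40.0% of all rows tested were called in these directions. H4ac exceeded H3 at 291 (68.8%) and was below it at 107 (25.3%), against 51.1% and 40.0% of all rows. The H3K14ac excess was called and reached 1.5-fold at 276 solo XUTs (65.2%) and at 39.0% of all rows, and the H4ac excess at 245 (57.9%) and at 35.2% of all rows. The median standard error of a log2 ratio was 0.05 at solo XUTs. Replicates of one antibody differed by an SD of 0.099 (H3K14ac), 0.101 (H4ac) and 0.121 (H3) in log2 density over the 423 members, small beside the spread between members.

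The same calls set solo XUTs beside the other classes. H3K14ac exceeded H3 at 64.1% of antisense XUTs and 46.2% of genes, and H4ac exceeded H3 at 63.7% and 46.0%. The median H3K14ac/H3 ratio was 1.11 at solo XUTs, 0.61 at antisense XUTs and 0.01 at genes, and the median H4ac/H3 ratio was 0.95, 0.49 and 0.01 in the same order. H3 went the other way, with a median log2 density of -0.12 at solo XUTs, 0.38 at antisense XUTs and 0.32 at genes. The difference between solo and antisense XUTs was 0.50 for H3K14ac/H3 (0.49 and 0.52 with the libraries of replicate 1 and 2), 0.47 for H4ac/H3 (0.47 and 0.46) and -0.50 for H3 density (-0.49 and -0.49). The exact two-sided permutation test over libraries, 2 against 2, gave p = 0.333 for each ratio, which is the smallest value it can give, so no threshold of 0.05 could be passed.

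**Figure D1:**
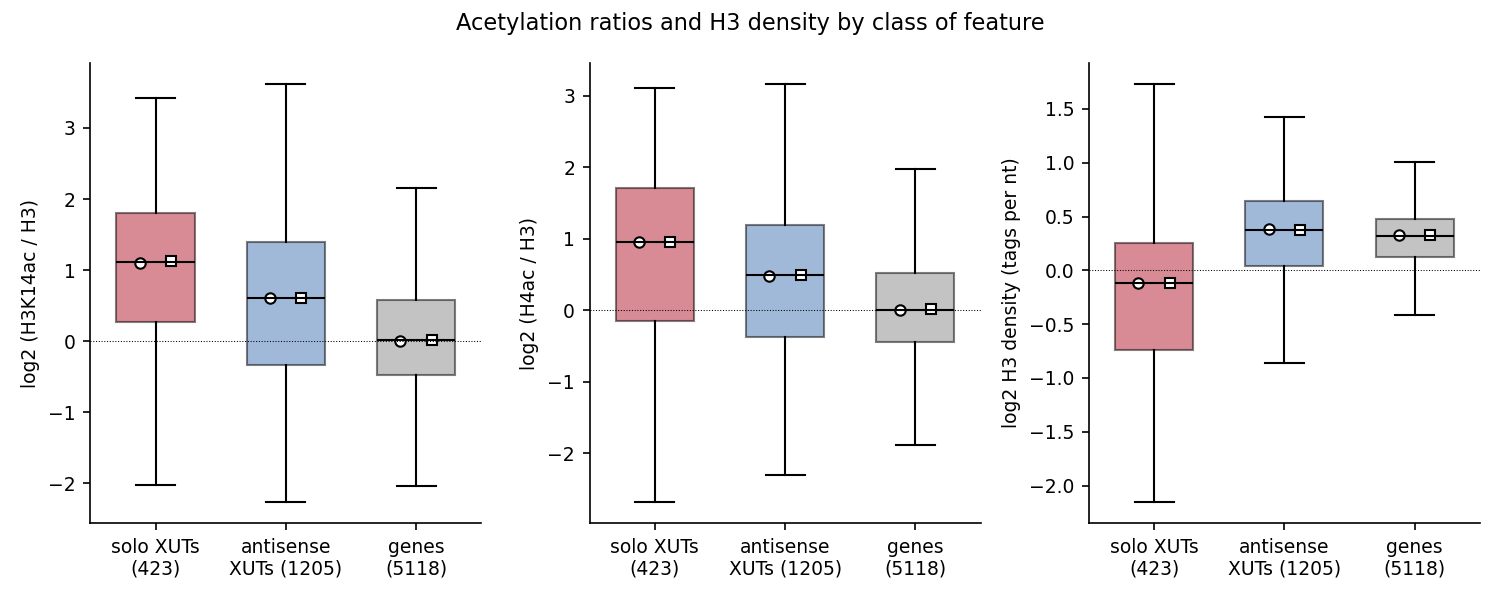
Log2 ratios of H3K14ac and H4ac to H3 and log2 H3 density (vertical axes, mean of 2 replicates) for 423 solo XUTs, 1205 antisense XUTs and 5118 genes. Boxes span the quartiles with a line at the median, whiskers reach the last value within 1.5 times the box height, and open circles and squares are the medians in replicates 1 and 2. Solo XUTs have the highest median ratios, 1.11 and 0.95, and the lowest H3 density.

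H3 density is the denominator of both ratios, so a fall of a ratio with H3 is built into it. Between the log2 densities themselves, the Pearson r over the 423 solo XUTs was 0.20 (H3K14ac with H3) and 0.10 (H4ac with H3), as a description. The tenth of solo XUTs with the least H3, 42 members, had medians of 2.23 (H3K14ac/H3) and 2.00 (H4ac/H3). Solo and antisense XUTs were also set side by side within bands of log2 H3 density, which were chosen after seeing the data. From -1 to 0, 175 solo XUTs had a median H3K14ac/H3 of 1.498 and 250 antisense XUTs one of 1.61. From 0 to 0.5, the medians were 0.48 at 122 solo XUTs and 0.77 at 461 antisense XUTs, and from 0.5 to 1 they were -0.41 at 41 solo XUTs and -0.36 at 414 antisense XUTs. For H4ac/H3, the median in the first band was 1.38 at solo XUTs and 1.51 at antisense XUTs. It was 0.01 at solo XUTs and 0.67 at antisense XUTs in the second band, and -0.63 at solo XUTs and -0.39 at antisense XUTs in the third. Within each of the 3 bands the solo median was the lower one, the reverse of the difference over all XUTs, by as little as 0.05 for H3K14ac/H3 in the third. Without chromosome-end members the solo median of H3K14ac/H3 was lower by 0.11 and 0.08 in the first 2 bands and higher in the third, at -0.26 for 20 solo XUTs and -0.32 for 389 antisense XUTs. For H4ac/H3 it was then lower by 0.10, 0.38 and 0.23 in the 3 bands. Below -1 there were 75 solo XUTs and 31 antisense XUTs, with median H3K14ac/H3 of 2.11 and 1.93.

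**Figure D2:**
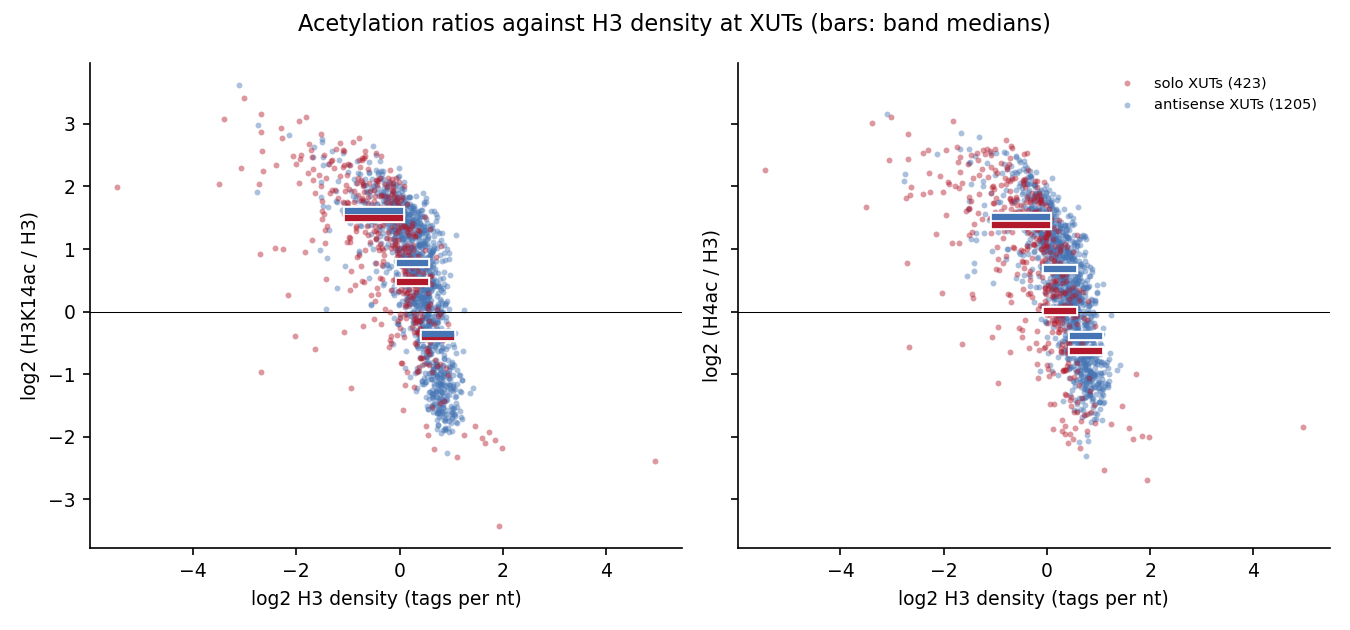
Log2 H3K14ac/H3 and log2 H4ac/H3 (vertical axes) against log2 H3 density in tags per nt (horizontal axis), one point per XUT, with bars at the medians of 3 bands of H3 density. H3 stands on both axes, so a falling cloud is built in. In each of the 3 bands the median of solo XUTs lies under that of antisense XUTs, though without chromosome-end members H3K14ac/H3 in the third band is higher at solo XUTs, -0.26 against -0.32.

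The calls of the 2 marks were also counted together, both against the same 2 H3 libraries. Both marks exceeded H3 at 288 members (68.1%) and both were below it at 75 (17.7%), against 48.2% and 36.5% of all rows tested. At 17 members (4.02%) H3K14ac was above H3 and H4ac below it, against 1.02% of all rows, and the opposite combination occurred at 0 of 423 members by limma, also at an unadjusted p under 0.05, and at 0 with voom weights on the recovered tags (1 at an unadjusted p). Set directly against each other, H3K14ac exceeded H4ac at 247 solo XUTs (58.4%) and was below it at 43 (10.2%), against 32.5% and 29.3% of all rows tested. At antisense XUTs these shares were 40.2% and 29.0%. The median log2 H3K14ac/H4ac was 0.24 at solo XUTs, 0.05 at antisense XUTs and -0.01 at genes. Of the solo XUTs called, 54 of the 247 and 8 of the 43 differed by 1.5-fold or more, which is 12.8% and 1.89% of all solo XUTs, against 3.68% and 2.60% of all rows tested.

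**Figure D3:**
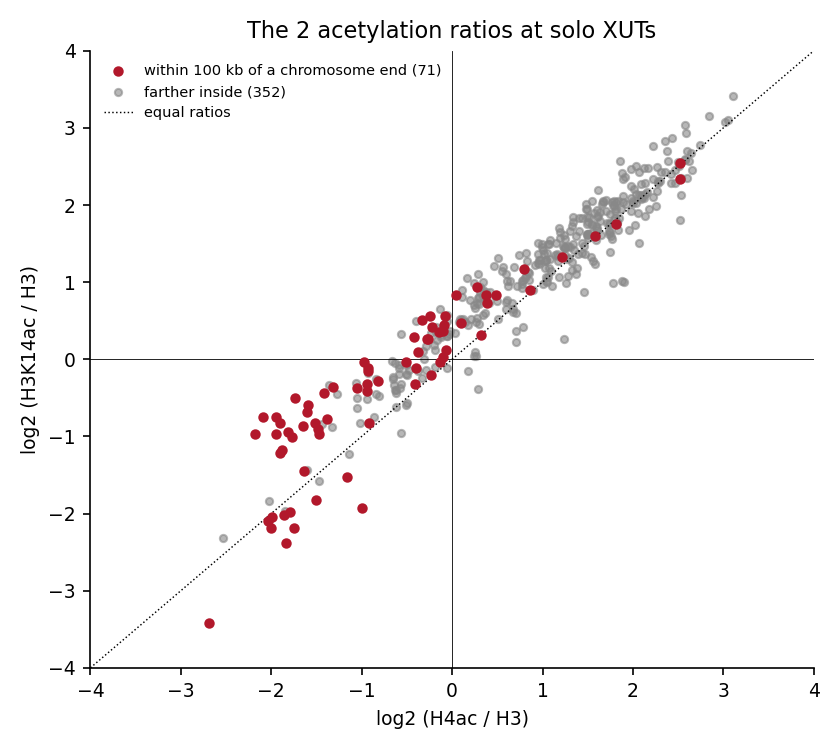
Log2 H3K14ac/H3 (vertical axis) against log2 H4ac/H3 (horizontal axis) for the 423 solo XUTs, with the 71 members within 100 kb of a chromosome end in red and the other 352 in grey. Points lie along the dotted line of equal ratios, and many of the chromosome-end members sit above it, with H4ac lower than H3K14ac relative to H3.

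Solo XUTs close to the chromosome ends stood apart from the rest. An end here is the end of the reference sequence, and any sequence missing beyond it is not in the distances. The 71 members within 100 kb of a chromosome end had a median H3K14ac/H3 of -0.32 and a median H4ac/H3 of -0.93, and the 352 members farther inside had 1.34 and 1.18. Median log2 H3 density was 0.41 at the chromosome ends and -0.23 inside. H3K14ac was above H3 at 25 (35.2%) and below it at 41 (57.7%) of the 71 chromosome-end members, against 52.5% and 40.0% of all rows tested. Of the 352 inner members, it was above H3 at 298 (84.7%) and below it at 35 (9.94%). H4ac was above H3 at 13 (18.3%) and below it at 52 (73.2%) of the 71, against 51.1% and 40.0% of all rows tested. Of the 352, it was above H3 at 278 (79.0%) and below it at 55 (15.6%). H3K14ac exceeded H4ac at 49 of the 71 (69.0%) and was below it at 7 (9.86%), against 32.5% and 29.3% of all rows tested. The median log2 H3K14ac/H4ac was 0.50 at the chromosome ends and 0.22 inside.

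Part of the chromosome ends is repeated sequence. The share of 50-mers that occur once in the genome was under 90% at 19 of the 71 chromosome-end members and at 33 of all 423, and tags at such rows can come from other copies. The 52 chromosome-end members of unique sequence had medians of -0.13 (H3K14ac/H3) and -0.92 (H4ac/H3). At similar H3 the contrast was also present. With log2 H3 between 0 and 0.5, the 30 chromosome-end members had medians of -0.22 and -0.93, and the 92 inner members had 0.71 and 0.30. Antisense XUTs also had lower medians there, -0.26 and -0.70 at 47 chromosome-end members and 0.64 and 0.53 at 1158 inner members. At these 47, H3K14ac was above H3 at 14 and below it at 26 (55.3%). H4ac was above H3 at 15 of them and below it at 30 (63.8%). H3K14ac exceeded H4ac at 33 of the 47 (70.2%) and was below it at 4. The median log2 H3K14ac/H4ac of antisense XUTs was 0.42 at the ends and 0.04 inside, so this shift was not particular to solo XUTs. The contrasts of the 2 classes were not tested against each other.

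Distance from the end resolved the pattern further. Within 25 kb, 16 solo XUTs had medians of -1.95 (H3K14ac/H3) and -1.70 (H4ac/H3) and a median log2 H3 density of 1.35, and 11 of these 16 had under 90% unique 50-mers. From 25 to 50 kb, 17 members had -0.11 and -0.42. From 50 to 100 kb, 38 members had 0.03 and -0.39. The 19 members from 100 to 200 kb had 1.54 and 1.33, close to the 1.32 and 1.18 of the 333 members beyond 200 kb. The balance of the 2 marks changed over the same distance. Within 25 kb, H3K14ac was below H4ac at 7 of the 16 members (43.75%) and above it at 4 (25%). Among all rows tested, 29.3% and 32.5% were called in these directions. The median log2 H3K14ac/H4ac of these few members was -0.17. From 25 to 50 kb H3K14ac was above H4ac at 14 of 17 members (82.4%) and from 50 to 100 kb at 31 of 38 (81.6%), with medians of 0.64 and 0.54. It was below H4ac at 0 members in both bins by limma, with or without voom weights and also at an unadjusted p under 0.05.

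**Figure D4:**
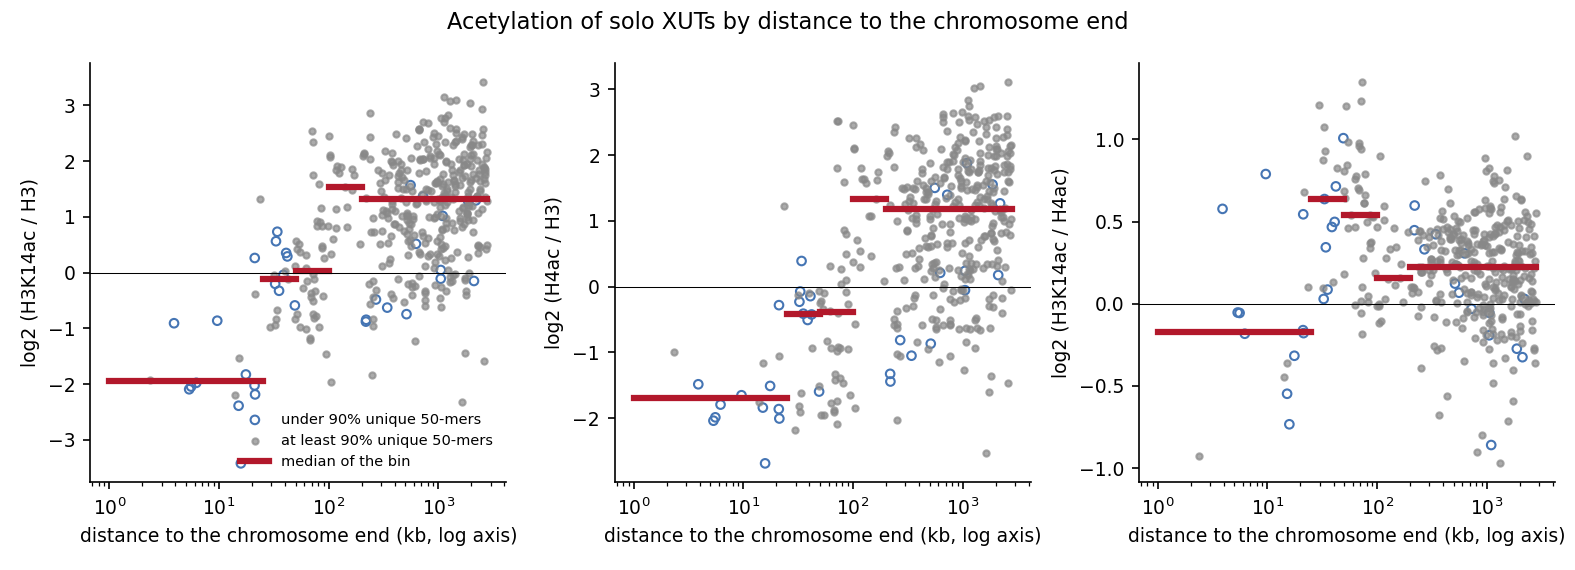
Log2 H3K14ac/H3, H4ac/H3 and H3K14ac/H4ac (vertical axes) of the 423 solo XUTs against distance to the nearest chromosome end in kb (horizontal log axis), with red bars at the median of each distance bin. Open circles mark members with under 90% unique 50-mers. The first 2 panels are low up to 100 kb and level beyond it, and the third is highest from 25 to 100 kb.

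The 6 chromosome ends were not alike, and the distance bins above pooled them. The 14 and 11 members at the left and right ends of chromosome I had median H3K14ac/H3 of -0.46 and -0.37, and the 17 and 13 members at the ends of chromosome II had -0.36 and -0.82. At the left end of chromosome III, 11 members had a median of 0.12, and at its right end 5 members had 1.32. H4ac/H3 medians lay between -1.38 and -1.05 at the 4 ends of chromosomes I and II, and were -0.10 and 1.22 at the left and right ends of chromosome III. H3K14ac was below H3 at 38 of the 55 members at the ends of chromosomes I and II and at 3 of the 16 at the ends of chromosome III. Among all rows tested, 40.0% were called below H3.

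The distance to a gene 5′ end was the second split. The 250 solo XUTs under 500 nt from a gene 5′ end had median densities of 1.94 and 1.92 tags per nt with the H3K14ac antibody, 1.61 and 1.57 with the H4ac antibody and 0.889 and 0.896 with the H3 antibody. The 173 members farther away had 1.48 and 1.49 (H3K14ac), 1.16 and 1.20 (H4ac) and 0.963 and 0.960 (H3). The median H3K14ac/H3 was 1.29 near and 0.93 far, a difference of 0.35 (0.45 and 0.36 by replicate), and the median H4ac/H3 was 1.09 near and 0.65 far, a difference of 0.45 (0.46 and 0.45). The exact permutation test over libraries gave the smallest p it allows, 0.333, for both. H3K14ac exceeded H3 at 211 of the 250 near members (84.4%) and at 112 of the 173 far ones (64.7%). It was below H3 at 28 near members (11.2%) and 48 far ones (27.7%). Among all rows tested, 52.5% were called above H3 and 40.0% below it.

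This difference of medians was smaller without the chromosome-end members. Of the near members 27 lay within 100 kb of a chromosome end, and of the far members 44. Without them the difference was 0.09 for H3K14ac/H3, between medians of 1.37 at 223 near members and 1.27 at 129 far members, and 0.15 for H4ac/H3. The H3K14ac calls of these inner members still differed, with 89.2% of near and 76.7% of far members above H3, and 7.17% and 14.7% below it. For H4ac 79.8% and 77.5% were above H3, and 13.5% and 19.4% below it. The difference in H3 density, -0.15 over all solo XUTs, turned to 0.17 without chromosome-end members. With the limit set at 1000 nt in place of 500 nt and chromosome-end members kept, the differences were 0.76 and 0.86 for the 2 ratios. Chromosome-end members made up 16 of the 54 members at 1000 to 2000 nt and 16 of the 42 farther away. With only members of at least 90% unique 50-mers, the H4ac/H3 difference was 0.18.

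The values of near members differed by the orientation of the gene, and less so without overlap and away from chromosome ends. The nearest gene 5′ end belonged to a gene on the same strand at 120 near members, to a gene transcribed away on the opposite strand at 121, and to another gene on the opposite strand at 9. The 120 had medians of 1.17 (H3K14ac/H3) and 1.05 (H4ac/H3), and the 121 had 1.36 and 1.17. Of the 120, 34 overlapped a same-strand gene, and of the 121, 8 did. Among near members that overlapped no same-strand gene and lay away from chromosome ends, 74 same-strand members had medians of 1.37 (H3K14ac/H3) and 1.26 (H4ac/H3), and 100 divergent members had 1.46 and 1.30. Of these, H3K14ac exceeded H3 at 68 of 74 (91.9%) and at 91 of 100 (91%), against 52.5% of all rows tested.

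Solo XUTs mostly stood above the gene whose 5′ end was nearest. The H3K14ac/H3 ratio of the XUT was above that of its nearest gene in 347 of 423 cases (82.0%), with a median difference of 1.05, and its H4ac/H3 ratio in 322 cases (76.1%), with a median difference of 0.89. Its H3 density was above that of the gene in 83 cases (19.6%). The 423 XUTs had 354 different nearest genes. For the near members the count for H3K14ac/H3 was 216 of 250 (86.4%), and for the 71 chromosome-end members it was 45 (63.4%). A gene row averages a whole transcript and a XUT a stretch with a median length of 514 nt, so the values cover lengths of DNA that differ.

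Overlap with a gene on the same strand was the other split. The 52 overlapping members had median ratios of 1.02 (H3K14ac/H3) and 0.74 (H4ac/H3), and the 371 without such overlap had 1.14 and 0.98. The differences were -0.13 (-0.17 and -0.07 by replicate) and -0.24 (-0.18 and -0.27). The exact permutation test over libraries gave p = 1 for H3K14ac and p = 0.333 for H4ac. Its statistic comes from differences of median log2 density in each library, so these p-values do not test the differences of median ratios. Only 2 of the 52 lay at chromosome ends, and without chromosome-end members the differences were -0.32 and -0.39, larger in size than the 0.09 and 0.15 between near and far members. The difference in H3 density was -0.08 and turned to 0.08 without them. The 34 members that overlapped a gene on their own strand and whose nearest gene 5′ end, under 500 nt away, was on that strand had the lowest medians of these classes, 0.44 and 0.29, while the 10 overlapping members far from any gene 5′ end had 1.17 and 1.42. The 208 members near a gene 5′ end with no overlap had 1.35 and 1.18, and the 163 members with neither had 0.83 and 0.59.

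At the limit of the rule itself, the 9 solo XUTs that overlapped an opposite-strand gene by 25 to 49 nt had medians of 0.82 and 0.47, and the 16 antisense XUTs with 50 to 99 nt of overlap had 0.97 and 1.12. The 409 solo XUTs with no such overlap had 1.11 and 0.95, and the 1189 antisense XUTs with 100 nt or more had 0.60 and 0.47.

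Other annotated noncoding features overlapped 266 of the 423 members on either strand. The 224 members that overlapped an annotated ncRNA gene had median ratios of 1.32 (H3K14ac/H3) and 1.17 (H4ac/H3), and the 157 that overlapped no other noncoding row had 0.83 and 0.34. Inside the chromosomes these medians were 1.45 and 1.27 at 201 members, and 1.11 and 1.00 at 119 members. The 21 members that overlapped a pseudogene had -0.31 and -0.82, but 9 of them lay within 100 kb of a chromosome end and 7 had under 90% unique 50-mers. The 12 that overlapped a long terminal repeat had 0.62 and 0.40. The 9 members that overlapped a tRNA gene differed from the class in the balance of the marks, with a median H3K14ac/H3 of 1.28, under the median H4ac/H3 of 1.55. H3K14ac was below H4ac at 6 of these 9 (66.7%) and above it at 0 by limma (1 at an unadjusted p under 0.05, and 1 with voom weights). The shares of all rows tested were 29.3% and 32.5%. Only 9 members are counted here, and 4 of the 9 had under 90% unique 50-mers.

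Single members show these classes at the level of the libraries. The members at the top were low in H3. XUT0636 (chrI:3004471-3004872, minus strand, 1266 nt from the 5′ end of pac2, a transcription factor gene that restrains ste11) had 1.29 and 1.33 tags per nt of H3K14ac, 1.06 and 1.06 of H4ac and 0.124 and 0.104 of H3. Its log2 ratios of 3.42 and 3.11 were the highest of all solo XUTs for H3K14ac/H3 and H4ac/H3. The pac2 row itself had -1.82 and -1.23.

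XUT1530 (chrI:4136061-4136613, plus strand) began 30 nt from the 5′ end of bgl2, a cell-wall glucanase gene transcribed away from it. It had 2.37 and 2.50 tags per nt of H3K14ac, 2.35 and 2.35 of H4ac, and 0.302 and 0.250 of H3, so each mark lay far above both H3 libraries. Its ratios were 3.10 and 3.05, against -0.24 and 0.00 at bgl2. XUT0597 (chrI:2519259-2519495, minus strand), which lay 24 nt upstream of gpa2, the Gα gene of glucose sensing, had 1.60 and 1.496 tags per nt of H3K14ac, 1.28 and 1.16 of H4ac and 0.171 and 0.219 of H3. Its ratios were 2.93 and 2.59, against 0.38 and 0.55 at gpa2. XUT1550 (chrI:4457505-4457839, plus strand), with the aldehyde dehydrogenase gene atd1 as the nearest at 2318 nt, had ratios of 3.16 and 2.84.

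Within genes, the highest H3K14ac/H3 ratios were at 2 of the shorter members. XUT0233 (chrII:947998-948198, minus strand) is the shortest of the 423 at 201 nt, and all of it lay in the first part of gap1, which encodes a GTPase-activating protein of Ras1. It had 2.75 and 3.10 tags per nt of H3K14ac, 2.68 and 3.01 of H4ac and 0.610 and 0.547 of H3, with ratios of 2.32 and 2.28. The whole gap1 row had -0.60 and -0.53. XUT0230 (chrII:889615-889829) lay inside SPBC713.14c and had 2.43 and 2.07, close to the 2.31 and 1.82 of that row.

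The lowest members carried more H3 than either mark. XUT1154 (chrII:2887438-2887641, plus strand), whose start is shown above, lay 809 nt upstream of rsv1, a zinc-finger gene for survival under glucose starvation. It had 0.464 and 0.386 tags per nt of H3K14ac, 0.359 and 0.369 of H4ac and 2.14 and 2.16 of H3. Its ratios of -2.32 and -2.53 were the lowest of any inner member, and rsv1 had -1.21 and -1.58. XUT0778 (chrI:5474655-5474920, minus strand), inside the first part of gto1, had 0.346 and 0.384 tags per nt of H3K14ac, 0.405 and 0.386 of H4ac and 1.504 and 1.40 of H3. The whole gto1 row stood at -0.03 and -0.29, against -1.97 and -1.85 at the XUT. XUT0630 (chrI:2971251-2973930, minus strand), one of the longest members at 2680 nt, overlapped the 5′ end of agl1, an alpha-glucosidase gene, by 814 nt. It had ratios of -1.58 and -1.47, and agl1 had -1.12 and -1.03.

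Low ratios away from the chromosome ends were few. H3K14ac/H3 was called and under -1 at 6 of the 352 inner members, namely XUT1154, XUT0778, XUT0027 (-1.83, near SPCC794.04c), XUT0630, XUT0690 (-1.43, in SPAC4H3.03c) and XUT1008 (-1.22, in the cation ATPase gene cta3). XUT0027, XUT0690 and XUT1008 were chosen after their values were seen. All 6 had 100% unique 50-mers, and H4ac/H3 was also under -1 at each. XUT0778 lay 104.2 kb from the end of chromosome I, just past the limit of 100 kb.

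At the chromosome ends the lowest values stood on repeated sequence. XUT0446 (chrII:4523746-4523974), nearest to the telomere-linked helicase gene tlh2, had 0.348 and 0.344 tags per nt of H3K14ac, 0.596 and 0.568 of H4ac and 3.75 and 3.86 of H3. Its ratios of -3.42 and -2.69 were the lowest of all, but 0% of its 50-mers were unique. XUT0007 (chrIII:15095-15312) had the highest H3 of all, 29.4 and 32.8 tags per nt, with 6.03 and 5.83 of H3K14ac and 8.61 and 8.73 of H4ac, also at 0% unique 50-mers. Mapping is described as unique, and how tags came to be counted at such rows is not given in the sources used here. XUT1271 (chrII:4518240-4518465), with 10.7% unique 50-mers, was second in H3 at 3.87 and 3.98 tags per nt, and XUT1273 (chrI:17588-17919), with 0.707%, was among the 2 lowest near members, at -1.83 and -1.51. XUT0447 (chrII:4536245-4537449), 2.36 kb from the end of chromosome II and of unique sequence, had 0.887 and 0.844 tags per nt of H3K14ac, 1.70 and 1.60 of H4ac and 3.32 and 3.30 of H3. Its log2 H3K14ac/H4ac of -0.93 was among the 2 lowest. The other was XUT0714 (chrI:4268676-4268918), at -0.97, an inner member with 0.216 and 0.313 tags per nt of H3K14ac, 0.566 and 0.477 of H4ac and 0.224 and 0.206 of H3.

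Farther from the ends the balance was the opposite. XUT1280 (chrI:72297-72775, plus strand), 72.3 kb from the end of chromosome I, had 0.779 and 0.783 tags per nt of H3K14ac, 0.293 and 0.309 of H4ac and 1.32 and 1.31 of H3. H3K14ac lay between H4ac and H3 with no overlap of libraries, and log2 H3K14ac/H4ac was 1.35, the highest of all solo XUTs. XUT1268 (chrII:4468072-4468369), 71.4 kb from the end of chromosome II, had 0.821 and 0.891 tags per nt of H3K14ac, 0.379 and 0.338 of H4ac and 1.22 and 1.22 of H3, a log2 H3K14ac/H4ac of 1.23. Not every chromosome-end member was low. XUT0152 (chrIII:2429110-2429311), 23.6 kb from the right end of the chromosome III reference sequence, had 3.82 and 3.65 tags per nt of H3K14ac, 3.38 and 3.59 of H4ac and 1.44 and 1.54 of H3.

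The 2 members with the least H3 differed in whether their ratios were called. XUT1246 (chrII:4159552-4159995, plus strand) began 9 nt from the 5′ end of pgk1, the glycolytic phosphoglycerate kinase gene transcribed away from it. It had 0.0718 and 0.0887 tags per nt of H3K14ac, 0.114 and 0.0848 of H4ac and 0.00830 and 0.0180 of H3, the last from 4 and 8 tags. Its ratios of 1.99 and 2.26 were not called (limma, Benjamini-Hochberg adjusted p = 0.933 and 0.924), and at so low a density they depend on the pseudocount. XUT1226 (chrII:3859039-3859870, plus strand), which lay inside rgp1, had 0.327 and 0.382 tags per nt of H3K14ac, 0.290 and 0.252 of H4ac and 0.0853 and 0.0721 of H3. Its ratios of 2.04 and 1.67 were both called higher (limma, Benjamini-Hochberg adjusted p = 0.00196 and 0.00521).

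Of a list of 15 loci known for noncoding transcription, 2 had a solo XUT as overlap or nearest neighbour, and both are genes of sexual development. XUT0723 (chrI:4513793-4515019, minus strand) overlapped 1223 nt of mei2, the RNA-binding protein gene that starts meiosis. It had 0.830 and 0.823 tags per nt of H3K14ac, 0.579 and 0.518 of H4ac and 0.983 and 1.00 of H3. The ratios were -0.26 (H3K14ac/H3) and -0.84 (H4ac/H3), both below 0 by limma with Benjamini-Hochberg adjustment (adjusted p = 0.00394 and 1.3e-05), and the mei2 row had -0.81 and -1.05. XUT1233 (chrII:3981931-3982359, plus strand) lay 953 nt upstream of ste11, the transcription factor gene of mating and meiosis. It had 1.48 and 1.30 tags per nt of H3K14ac, 1.07 and 1.17 of H4ac and 0.473 and 0.457 of H3. Its ratios of 1.56 and 1.25 were both called higher (limma, Benjamini-Hochberg adjusted p = 2.6e-06 and 8e-06), while the ste11 row had -0.60 and -0.50.

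Length and base composition followed the ratios only weakly. The 423 members had a median GC content of 33.7%, and across them the Pearson r of H3K14ac/H3 was -0.11 with length and -0.06 with GC content. The longest member, XUT0031 (chrIII:254394-257189, 2796 nt), had 1.36 and 1.31 tags per nt of H3K14ac, 1.14 and 1.14 of H4ac and 1.502 and 1.45 of H3, so both marks lay below H3. The third longest, XUT0022 (chrIII:170849-173452, 2604 nt), had 1.64 and 1.65 of H3K14ac, 1.65 and 1.61 of H4ac and 0.493 and 0.470 of H3, so both lay above it. XUT1552 (chrI:4488276-4488477), one of the shortest at 202 nt, stood at 1.36 and 1.47 beside alg8 at 0.16 and 0.09.

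**Figure D5:**
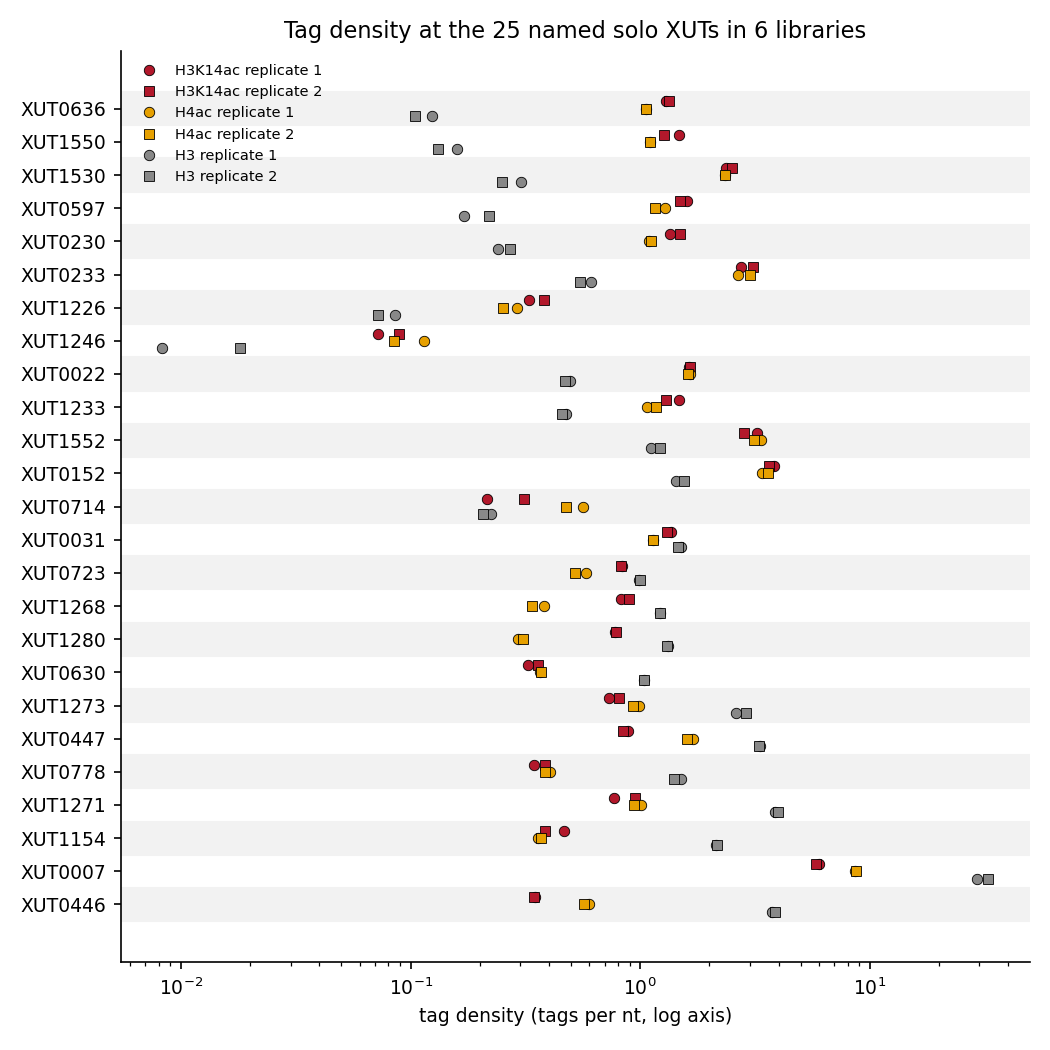
Tag density in tags per nt (horizontal log axis) of H3K14ac (red), H4ac (yellow) and H3 (grey) at the 25 solo XUTs named by rule, in replicate 1 (circles) and replicate 2 (squares), ordered by H3K14ac/H3 with the highest at the top. H3 lies left of both marks at the upper members, such as XUT0636, and right of them at the lower ones, such as XUT1154 and XUT0446.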

How the data were processed

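ChIP-seq was run on wild-type cells with antibodies to H3K14ac, H4ac and H3, with 2 biological replicates each. The authors mapped 50 nt single-end reads with Bowtie2 (unique mapping) to build ASM294v2 and deposited tag densities, a signal in tags per nt of each annotated row, with each library scaled by 1 factor. How a tag was assigned to a row is not given in the sources used here. Density times row length, divided by 1 step per library (0.905 to 1), gave whole tags for 100% of values (within 0.01 of a whole number), with a median of 440 to 964 tags per solo XUT. The deposited columns of summed replicates were not used, and Input was not analysed here.

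Log2(density + 0.01) was fitted with limma 3.58.1 (R 4.3.3, intensity trend) over all 19340 rows with at least 0.05 tags per nt in 2 libraries or more, of 19343, with 1 mean per antibody, and p-values were adjusted by Benjamini-Hochberg. The script was tested on simulated data. Classes were compared by medians with an exact permutation test over libraries, since regions are not replicates. The test used the per-library difference of median log2 density, mark libraries against H3 libraries, and not the difference of median ratios. Distances run from the nearest edge of a XUT, and those to a chromosome end run to the end of the reference sequence. Uniqueness of 50-mers and sequence came from the RefSeq ASM294v3 genome, whose chromosome I and III lengths equal the last positions of the table. Centromeres were not annotated there and were not examined. Alternatives covered pseudocounts, filters, centring, the rows fitted, weights, leaving out each library and the replicate block. The members and lists were chosen with earlier results of these data known. Named XUTs were the 2 highest and 2 lowest in H3K14ac/H3 in each class, the 2 highest and 2 lowest of all solo XUTs in H4ac/H3, H3K14ac/H4ac and H3 density, the 3 longest and 3 shortest, and those at 15 listed loci.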

Additional observations from a re-analysis of the deposited data

How the results depend on the processing

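Of 252 values of 15 results under alternatives, 226 were counted as the same. For counts of calls this meant within 1.5-fold of the main count, and for differences of ratios the same direction only. The near minus far H3K14ac/H3 difference of 0.35 was thus counted as the same at 0.09, without chromosome-end members. For H3 density differences the size had to hold as well. Some settings could not change a result, such as leaving out an H4ac library for the H3K14ac/H3 differences. Requiring 1.5-fold in addition left 42 solo XUTs with H3K14ac below H3, 69 with H4ac below H3, and 54 and 8 with H3K14ac above and below H4ac. Counts with one library left out ranged over 314 to 322 and 69 to 76 for H3K14ac above and below H3, 284 to 290 and 99 to 107 for H4ac, and 216 to 253 and 30 to 43 for H3K14ac against H4ac. Deviations between replicates were nearly uncorrelated between antibodies (-0.0368, -0.00755 and 0.0554). This cannot show whether libraries of the same replicate number came from the same culture, and the main fit treated all libraries as independent. With the replicate block 322 and 73 solo XUTs were called for H3K14ac above and below H3. Voom weights on the recovered tags called 328 with H3K14ac above H3.

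The solo minus antisense difference reversed within bands of log2 H3 density, chosen after seeing the data. For H3K14ac/H3 it was -0.115, -0.295 and -0.0532 and for H4ac/H3 it was -0.131, -0.661 and -0.235, taking the bands from -1 to 0, 0 to 0.5 and 0.5 to 1. With XUTs near chromosome ends also left out, it was -0.106, -0.0842 and 0.0692 (H3K14ac/H3), no longer reversed in the third band, and -0.0986, -0.384 and -0.230 (H4ac/H3). Without XUTs near chromosome ends the H3 density differences reversed to 0.0757 (overlap) and 0.170 (near minus far), and that of solo minus antisense XUTs was -0.61. With members of at least 90% unique 50-mers the H3 differences were -0.0205 (overlap) and -0.0749 (near minus far). The near minus far H3 difference was -0.0625 with a limit of 250 nt, -0.341 with 1000 nt, and -0.0745 measured from the XUT 5′ end. With a pseudocount of 0.1 the solo minus antisense H3 difference was -0.46. Leaving out 1 library gave -0.0781 to -0.0356, -0.147 to -0.0982 and -0.497 to -0.493 for the overlap, near minus far and solo minus antisense H3 differences. The causes were not tested, beyond the smaller sets of members that some settings used. With 2 libraries per antibody the permutation test could not pass 0.05, so it says nothing about stability. Ratios at rows of few tags or repeated sequence are the least certain.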
